A study of Homo sapiens with 18 samples.

Results

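Cytochrome P450 enzymes are haem proteins that oxidise drugs, steroids, bile acids, fatty acids and vitamins, and the 55 genes described here are those whose approved symbol has the form CYP, a family number, a subfamily letter and a member number. They were taken from 19974 protein-coding genes on chromosomes 1 to 22 and X by the symbol alone. Chromatin immunoprecipitation and sequencing (ChIP-seq) had been carried out in U937, an established human myeloid leukaemia line. The lines compared were DKO cells, with SUV39H1 and SUV39H2 knocked out, SKO cells, with SUV39H1 knocked out, and sgControl cells, which carry a control guide. Each genotype had 2 libraries for H3K9me3 and 2 for H3K27me3, and 2 libraries of wild-type (WT) cells were made for the methyltransferase SETDB1. Whether each knockout line was 1 clone, and whether replicates were separate cultures, the sources used here do not state, so the spread between libraries may be technical.

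SUV39H1 and SUV39H2 are histone methyltransferases that place trimethylation on lysine 9 of histone H3 (H3K9me3), the mark of constitutive heterochromatin. H3K27me3 is placed by Polycomb complexes and marks developmentally silenced genes. Many P450 genes arose by tandem duplication and stand in clusters of near-identical copies, and most are transcribed in liver, adrenal gland, gonad or gut under the control of nuclear receptors. The quantity used throughout is the covered share, the percent of a gene body (first to last annotated base) that lay inside the broad domains deposited for a library.

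The promoters of the CYP3A cluster are shown because the domain edges that differ between genotypes run through this cluster, and because the near identity of the copies bears on how reads can be placed. Each run is the RefSeq promoter window of GRCh38.p14, 250 bases before to 50 after the annotated start, printed 5′ to 3′ on the gene's strand. Capitals mark the everted half-sites TGAACT and AGGTCA with 6 bases between them (ER6), known as a binding site of the xenobiotic receptor PXR, and the TATA element TATAAA. CYP3A4 lies at chr7:99784135-99784434, CYP3A5 at chr7:99679947-99680246 and CYP3A7 at chr7:99735147-99735446, all on the minus strand, and CYP3A43 lies at chr7:99827763-99828062 on the plus strand.
CYP3A4: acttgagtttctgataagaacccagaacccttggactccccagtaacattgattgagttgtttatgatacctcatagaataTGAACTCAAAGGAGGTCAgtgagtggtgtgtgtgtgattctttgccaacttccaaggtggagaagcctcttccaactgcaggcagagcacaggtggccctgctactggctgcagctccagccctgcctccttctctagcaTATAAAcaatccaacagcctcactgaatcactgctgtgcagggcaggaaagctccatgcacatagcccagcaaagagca
CYP3A5: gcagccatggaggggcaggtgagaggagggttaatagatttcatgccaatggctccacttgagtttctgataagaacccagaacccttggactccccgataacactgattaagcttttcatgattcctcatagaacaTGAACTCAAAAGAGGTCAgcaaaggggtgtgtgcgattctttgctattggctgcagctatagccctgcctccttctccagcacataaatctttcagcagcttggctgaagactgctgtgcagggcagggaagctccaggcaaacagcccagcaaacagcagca
CYP3A7: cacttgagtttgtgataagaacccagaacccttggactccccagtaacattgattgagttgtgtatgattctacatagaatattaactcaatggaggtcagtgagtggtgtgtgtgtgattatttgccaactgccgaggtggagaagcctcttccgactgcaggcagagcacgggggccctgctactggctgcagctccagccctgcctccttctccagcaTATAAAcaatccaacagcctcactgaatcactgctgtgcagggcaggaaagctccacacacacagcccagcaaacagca
CYP3A43: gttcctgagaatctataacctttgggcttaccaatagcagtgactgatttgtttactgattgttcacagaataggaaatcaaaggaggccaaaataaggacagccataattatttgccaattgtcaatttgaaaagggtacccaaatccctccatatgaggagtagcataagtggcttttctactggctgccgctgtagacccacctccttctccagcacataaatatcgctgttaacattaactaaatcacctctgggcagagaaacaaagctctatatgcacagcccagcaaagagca

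The CYP3A4 and CYP3A7 windows were identical at 282 of 299 aligned bases (94.3%), and the CYP3A4 and CYP3A5 windows at 207 of 241 (85.9%). CYP3A43 was the least alike, with 71.8% identity to CYP3A4. Searched on both strands, ER6 occurred in the CYP3A4 and CYP3A5 windows and in no other of the 39 P450 promoters with a sequence (5.13%), against 3 of 15812 promoters of all genes (0.019%). In CYP3A4 its first base lay at −169 and in CYP3A5 at −113 from the start. TATAAA occurred in 14 of the 39 windows (35.9%), against 9.75% of all promoters, and the nuclear receptor half-site AGGTCA, which is also the end of ER6, in 12 (30.8%), against 11.8%.

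A second pair of windows is shown because a mark over each of the 2 gene bodies differed between genotypes and because the windows have the opposite base composition. CYP2U1 lies at chr4:107931299-107931598 on the plus strand and CYP2J2 at chr1:59926724-59927023 on the minus strand, and neither holds a capital because neither motif was found.
CYP2U1: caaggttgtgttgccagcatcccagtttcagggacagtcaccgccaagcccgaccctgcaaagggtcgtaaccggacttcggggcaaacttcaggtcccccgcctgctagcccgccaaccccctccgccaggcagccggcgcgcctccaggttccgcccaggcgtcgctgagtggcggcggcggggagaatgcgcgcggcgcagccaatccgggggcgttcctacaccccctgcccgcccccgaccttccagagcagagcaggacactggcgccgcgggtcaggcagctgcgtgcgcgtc
CYP2J2: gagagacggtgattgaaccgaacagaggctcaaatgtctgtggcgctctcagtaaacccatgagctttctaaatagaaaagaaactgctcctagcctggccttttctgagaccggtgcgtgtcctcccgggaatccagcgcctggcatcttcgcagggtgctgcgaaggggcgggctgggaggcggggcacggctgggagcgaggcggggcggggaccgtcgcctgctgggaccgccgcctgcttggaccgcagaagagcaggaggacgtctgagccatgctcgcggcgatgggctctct

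The ratio of observed to expected CpG was 0.84 in the CYP2U1 window and 0.82 in the CYP2J2 window. It was 0 in CYP3A4, 0.11 in CYP3A5 and 0.15 in both CYP3A7 and CYP3A43. The median over all promoters was 0.76.

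Domains covered 753.5 to 1043.7 Mb in the H3K9me3 libraries and 1057.5 to 1225.4 Mb in the H3K27me3 libraries. The H3K9me3 domains held 16530587 to 23579864 reads and the H3K27me3 domains 47891128 to 70708137 reads. H3K9me3 covered 787.6 and 794.7 Mb in DKO, 753.5 and 755.7 Mb in SKO, and 1012.5 and 1043.7 Mb in sgControl, so that covered shares are set against lists of unequal total length. The lists carry no spike-in factor and cannot show a change in the total amount of a mark. Of 8 myeloid identity genes, 6 (SPI1, CD68, LYZ, MPO, CEBPA and CSF1R) had 0% of both marks in every library, and all 8 had 0% H3K27me3. ITGAM and CD33 did carry H3K9me3. It covered 41.8% to 67.0% of ITGAM over the 6 libraries. At CD33 it was 58.0% and 69.2% in DKO, 0% and 64.0% in SKO, and 0% in both sgControl libraries. The liver gene TTR was 100% covered by both marks in every library, ALB had 100% H3K27me3 in the 4 knockout libraries against 27.2% and 31.9% in sgControl, and APOA1 had 0% of both. RNA was not measured, so the identity of the cells was not checked on expression.

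Averaged over the 55 genes, the covered share for H3K9me3 was 34.4 ± 1.51% in DKO, 32.3 ± 1.94% in SKO and 35.6 ± 1.65% in sgControl (SD, n = 2 each). The same mean over all protein-coding genes was 16.2%, 16.1% and 16.6% in that order. For H3K27me3 the P450 genes had 26.5 ± 0.263% in DKO, 27.2 ± 0.00368% in SKO and 31.5 ± 0.49% in sgControl. All genes had 15.5%, 15.0% and 15.1%. The P450 genes thus carried more of both marks than the average gene in every genotype, and their H3K27me3 mean was lower in both knockouts than in sgControl by more than the spread between libraries. The lists of a mark differ in length, and with all 6 cut to equal covered length the H3K9me3 means were 33.2% in DKO, 32.3% in SKO and 26.6% in sgControl, which puts the knockouts above sgControl and so turns the order of the means round. The H3K27me3 means were then 25.3%, 24.3% and 31.5% in the same order.

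The members fell into unlike states. H3K9me3 covered at least 50% of the body in all 6 libraries at 8 genes, namely CYP1B1, CYP2B6, CYP2J2, CYP4B1, CYP4F11, CYP4X1, CYP19A1 and CYP39A1. H3K27me3 did so at 12 genes, of which CYP2A13, CYP2C8, CYP4A11, CYP4A22, CYP4B1, CYP4X1 and CYP39A1 were at 100% in every library. CYP2B6, CYP4B1, CYP4X1 and CYP39A1 met this limit for both marks. At the other end, 17 genes had 0% H3K9me3 and 29 had 0% H3K27me3 in every library. Both marks were at 0% throughout at 14 genes: CYP1A1, CYP2A6, CYP2A7, CYP2C19, CYP2D6, CYP2R1, CYP2W1, CYP11A1, CYP20A1, CYP21A2, CYP26A1, CYP26C1, CYP27A1 and CYP51A1. These include ubiquitous genes such as CYP51A1, which demethylates lanosterol in cholesterol synthesis, and genes restricted to other tissues, such as the adrenal CYP21A2. Their median length was 7.83 kb, against 21.9 kb for the other 41 members.

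**Figure D1:**
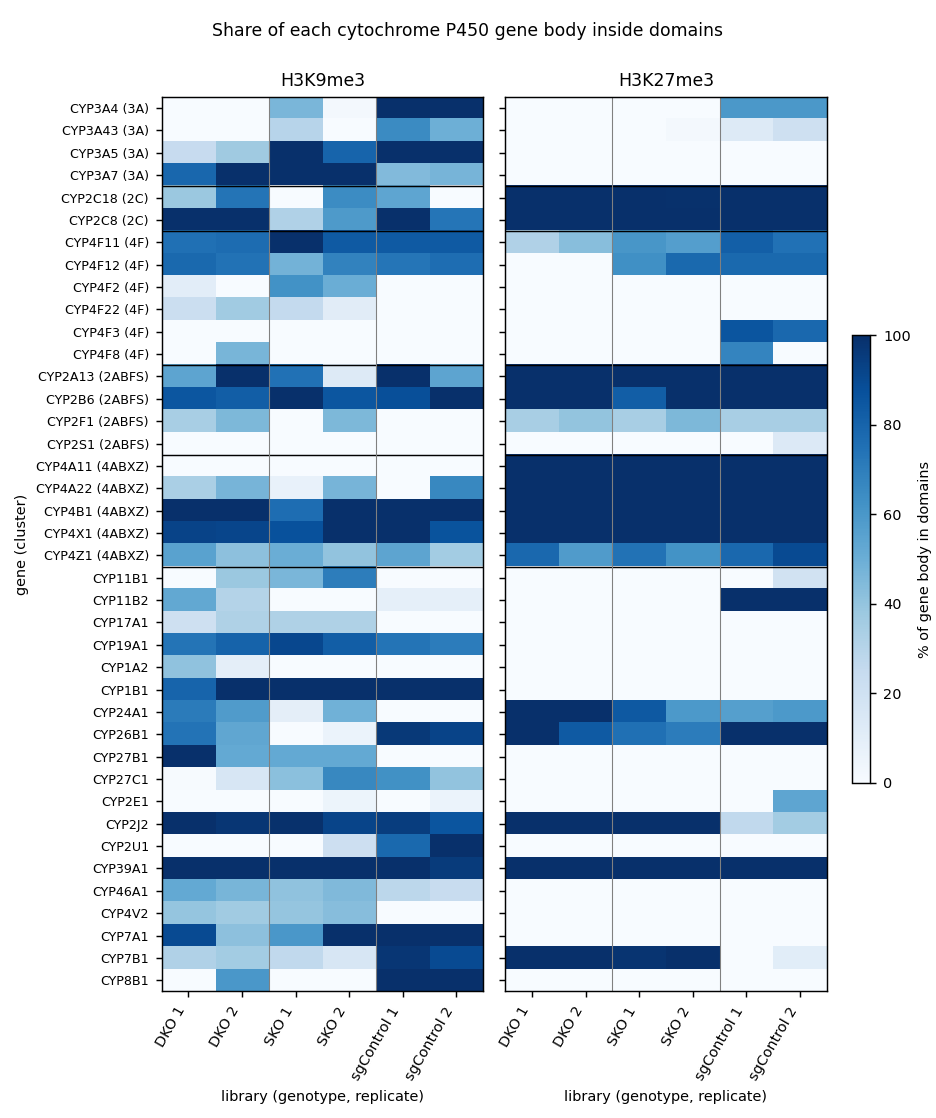
Covered share of each gene body (colour, 0 to 100%) for H3K9me3 (left) and H3K27me3 (right) in the 2 libraries each of DKO, SKO and sgControl cells. Of the members above 0% in some library, 40 are shown by cluster, and the CYP3A, CYP4F, CYP7B1 and CYP11B2 rows change colour between the knockout and the sgControl columns.

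Differences were tested with limma on the covered share of every gene whose mean over the 6 libraries of a mark lay strictly between 0 and 100%, with Benjamini-Hochberg adjustment over those genes. A gene was called when the adjusted p was under 0.05 and the group means differed by at least 25 percentage points. For H3K9me3 this took in 38 of the 55 members, and for H3K27me3 19. In DKO against sgControl, 5 of 38 members were called lower for H3K9me3 (13.2%, against 10.1% of all genes fitted) and 3 higher (7.89%, against 8.74%). In SKO against sgControl, 5 were lower (13.2%, against 10.2%) and 4 higher (10.5%, against 9.79%). For H3K27me3, 5 of 19 were lower in DKO (26.3%, against 15.6%) and 3 higher (15.8%, against 19.5%), and 4 were lower in SKO (21.1%, against 16.0%) and 2 higher (10.5%, against 17.4%). The shares for H3K9me3 were near those of all genes, and each for H3K27me3 rests on 2 to 5 genes, so the counts do not set the family apart. The median difference over the fitted members was 3.34 points for H3K9me3 and −9.54 points for H3K27me3 in DKO, and 0.125 and −9.54 points in SKO, beside 0 and −1.43 points in DKO and 0.671 and −1.70 points in SKO over all genes fitted. The −9.54 points are the value of CYP11B1, which had 19.1% H3K27me3 in sgControl 2 and 0% in every other library. Members at 0% in all 4 knockout libraries, such as CYP3A4, CYP4F3 and CYP11B2, entered the H3K27me3 fit only through sgControl and could only fall. The H3K27me3 medians therefore do not show a loss over the family. In the same way, CYP4F2, CYP4V2 and CYP17A1 had 0% H3K9me3 in both sgControl libraries. They entered the H3K9me3 fit only through the knockouts and could only rise, so their p-values should be read with that in mind. Both comparisons share the 2 sgControl libraries of a mark. In all, 17 members were called for either mark in at least one of them, and they are described by role below. The share of all genes called by this pooled rule was not counted, so the 17 cannot be set against it.

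Among the genes of drug and xenobiotic metabolism, the CYP3A cluster on chromosome 7 changed over most of its length. In DKO cells H3K9me3 fell at CYP3A4, CYP3A5 and CYP3A43 and rose at CYP3A7, and in SKO cells it fell at CYP3A4 and rose at CYP3A7. CYP3A4, the main drug-oxidising P450 of adult liver and gut, had an H3K9me3 covered share of 0% in both DKO libraries, 46.4% and 2.33% in SKO, and 100% in both sgControl libraries. The groups did not overlap, and the SKO libraries differed widely from each other. Against sgControl, the difference was −100 ± 16.2 points in DKO (SE, limma adjusted p = 0.0224) and −75.6 ± 16.2 points in SKO (adjusted p = 0.0399). H3K27me3 at CYP3A4 was 0% in all 4 knockout libraries and 59.5% in both sgControl libraries (−59.5 points, limma adjusted p = 1.98e-07 in DKO and 2.02e-07 in SKO). Where all libraries of a group hold the same value, as here, the error comes from the spread of other genes, and such small p-values should be read with that in mind.

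CYP3A5, the form whose level varies most between adults, had 24.5% and 37.1% H3K9me3 in DKO, 100% and 79.9% in SKO and 100% in both sgControl libraries. DKO lay below every other library, with −69.2 ± 8.76 points against sgControl (limma adjusted p = 0.0126), and SKO was not called (−10.1 points, adjusted p = 0.440). CYP3A43, the least characterised copy, had 0% in both DKO libraries, 29.4% and 0% in SKO, and 65.1% and 49.6% in sgControl (DKO −57.3 ± 12.2 points, adjusted p = 0.0421). CYP3A7, the fetal liver form, went the other way: its covered share was 78.8% and 100% in DKO and 100% in both SKO libraries, against 44.3% and 47.0% in sgControl. All knockout libraries lay above sgControl, by 43.8 ± 7.91 points in DKO (limma adjusted p = 0.0289) and 54.4 ± 7.91 points in SKO (adjusted p = 0.0165). H3K27me3 was 0% in every library at CYP3A5 and CYP3A7, and at CYP3A43 it was 0% in DKO, 0% and 2.07% in SKO, and 12.6% and 21.0% in sgControl.

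**Figure D2:**
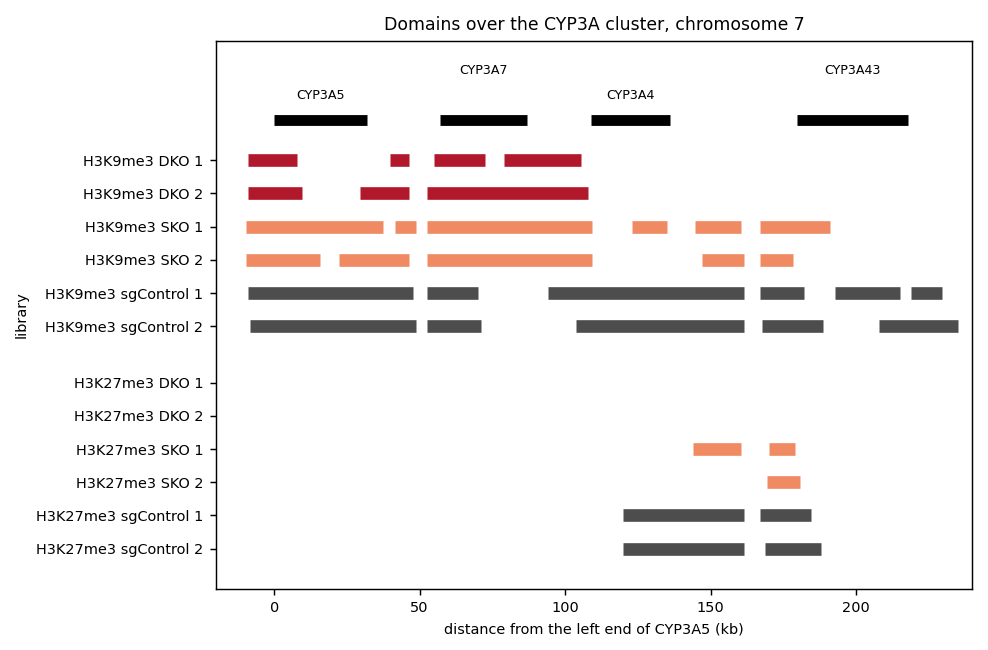
H3K9me3 and H3K27me3 domains (bars) over the CYP3A cluster in each library, with gene bodies in black and position in kb from the left end of CYP3A5. The H3K9me3 block of sgControl cells over CYP3A4 is missing in DKO cells, H3K9me3 covers all of CYP3A7 in DKO 2 and both SKO libraries and most of it in DKO 1, and H3K27me3 is seen over CYP3A4 in sgControl cells only.

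Over the whole 218 kb from CYP3A5 to CYP3A43, H3K9me3 domains covered 32.0 ± 7.53% in DKO, 63.2 ± 10.1% in SKO and 74.7 ± 4.77% in sgControl (SD, n = 2 each). H3K27me3 covered 0% in DKO, 8.44 ± 4.67% in SKO and 27.5 ± 0.519% in sgControl. The chromosome itself differed between genotypes: H3K9me3 domains on chromosome 7 spanned 25.3 and 25.1 Mb in DKO, 58.4 and 58.1 Mb in SKO, and 76.6 and 74.3 Mb in sgControl. In DKO against sgControl 30.8% of the 478 fitted chromosome 7 genes were called lower, against 8.75% of the genes of other chromosomes, while 3.35% of them were called higher, against 9.09%. Read density in the H3K27me3 domains of chromosome 7 was also set against that of other chromosomes. The ratio was 0.828 and 0.827 in DKO, 1.08 in both SKO libraries, and 0.969 and 0.971 in sgControl. For H3K9me3 it was 0.961 and 0.959 in DKO, 0.974 and 0.978 in SKO, and 0.983 in both sgControl libraries. The part of these chromosome-wide differences in the CYP3A losses was not tested, and H3K9me3 rose at CYP3A7. The other 2 chromosome 7 members, CYP51A1 and CYP2W1, had 0% of both marks in every library. Without sgControl 1, sgControl 2, DKO 1 or DKO 2 the H3K9me3 calls of CYP3A4 and CYP3A43 in DKO were lost (adjusted p = 0.100 to 0.164), and that of CYP3A43 also shrank to −14.7 points when only the higher-scoring 50% of domains were kept (0.195) and at equal covered length (0.452). The call was also lost for CYP3A5 without sgControl 1, sgControl 2 or DKO 1 (0.0596 to 0.0700). The calls of CYP3A4 in SKO (0.103 to 0.151) and of CYP3A7 in SKO (0.0780 to 0.0859) and DKO (0.0875 to 0.126) were each lost without any of 4 of the 6 libraries, while the H3K27me3 calls of CYP3A4 held in all 14 alternatives (adjusted p at most 0.000194). The sources used here do not state how reads matching several copies were placed, so values of single CYP3A genes are uncertain. The same holds for single genes of the CYP2A, CYP2C, CYP4A and CYP4F clusters. A share of 0% at a near-identical copy need not mean that the mark is absent there.

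In the CYP2C cluster on chromosome 10 the covered share differed from gene to gene. CYP2C18 and CYP2C8, which oxidises paclitaxel, had 99.6% to 100% H3K27me3 in every library. Both genes also carried H3K9me3 in some libraries. At CYP2C18 it was 38.1% and 73.7% in DKO, 0% and 64.6% in SKO, and 53.9% and 0% in sgControl. CYP2C19, which activates clopidogrel, had 0% of both marks. With limma 0 of these 3 genes were called for either mark, and 1 (CYP2C8, for H3K9me3) had an unadjusted p under 0.05 in some comparison. CYP2C19 could be fitted for neither mark and CYP2C8 not for H3K27me3, so the 0 covers few genes. The shares of all genes called are given with the next cluster. H3K9me3 at CYP2C8 was 100% in both DKO libraries, 31.9% and 58.7% in SKO, and 100% and 73.1% in sgControl. The SKO libraries lay below the rest, but SKO was not called against sgControl (−41.3 ± 14.0 points, limma adjusted p = 0.111), nor DKO against SKO (54.7 points, adjusted p = 0.139). In the cluster of CYP2A, CYP2B, CYP2F and CYP2S genes on chromosome 19, 3 of the 6 genes could be fitted for each mark. With limma 0 of them were called, where 8.74% to 10.2% of all genes for H3K9me3 and 15.6% to 19.5% for H3K27me3 were called in either direction against sgControl, and 0 had an unadjusted p under 0.05. CYP2B6, which oxidises bupropion and efavirenz, had 82.3% to 100% of both marks in every library, and its neighbours CYP2A6 and CYP2A7 had 0% of both.

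Among the fatty acid and eicosanoid hydroxylases, the CYP4F cluster on chromosome 19 lost H3K27me3. CYP4F3, which inactivates leukotriene B4 in neutrophils, had 0% H3K27me3 in all 4 knockout libraries and 85.8% and 78.5% in sgControl. The groups were far apart, by −82.2 ± 2.77 points (limma adjusted p = 0.000163 in DKO and 0.00017 in SKO). CYP4F12 had 0% in both DKO libraries, 63.1% and 77.9% in SKO, and 77.9% in both sgControl libraries. DKO thus stood apart from both other genotypes, by −77.9 ± 5.62 points from sgControl (limma adjusted p = 0.00149). CYP4F11, a hydroxylase of long-chain fatty acids, had 32.0% and 42.7% in DKO, 60.5% and 56.9% in SKO, and 81.8% and 74.7% in sgControl, with no overlap between the genotypes. Only DKO was called against sgControl (−40.9 ± 5.04 points, adjusted p = 0.0067). CYP4F8 had 67.4% in sgControl 1 and 0% in the other 5 libraries and was not called, and CYP4F2 and CYP4F22 had 0% in every library. Over the 426 kb of the cluster, H3K27me3 covered 17.7 ± 0.398% in DKO, 27.1 ± 0.133% in SKO and 47.5 ± 1.86% in sgControl.

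**Figure D3:**
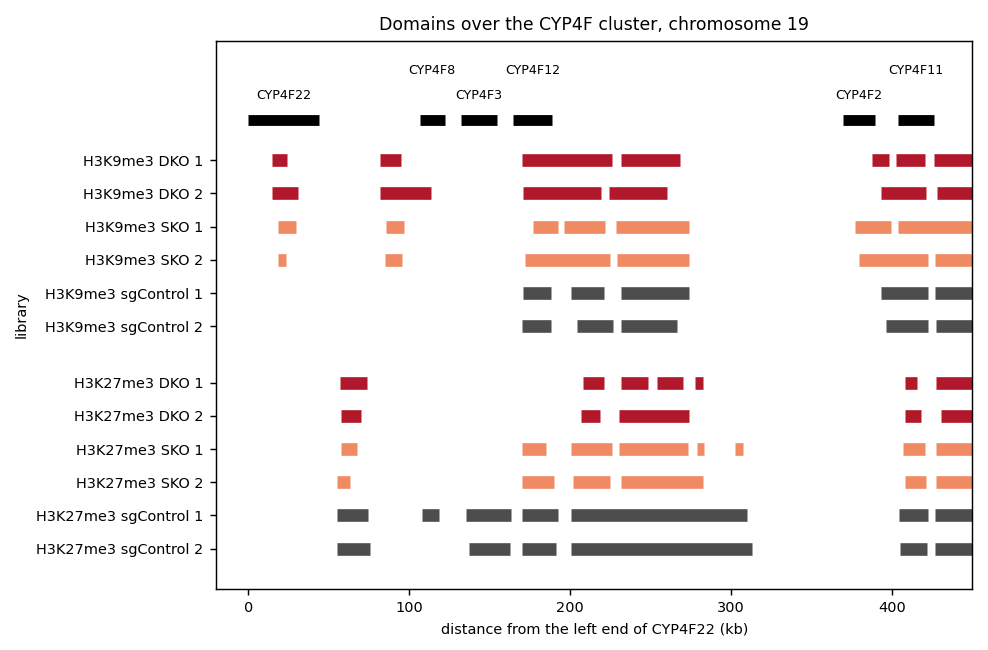
H3K27me3 and H3K9me3 domains (bars) over the CYP4F cluster in each library, with gene bodies in black and position in kb from the left end of CYP4F22. The H3K27me3 domains over CYP4F3 are seen in sgControl cells only, those over CYP4F12 are missing in DKO cells, and the H3K9me3 domains over CYP4F22 are seen in the knockouts only.

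H3K9me3 over the same cluster was 35.7 ± 2.84% in DKO, 36.4 ± 0.321% in SKO and 25 ± 1.33% in sgControl, so the knockouts lay above sgControl. The gene-level change was at CYP4F2, which hydroxylates vitamin K and arachidonic acid. Its H3K9me3 covered share was 10.3% and 0% in DKO, 62.2% and 50.2% in SKO, and 0% in both sgControl libraries. SKO was called against sgControl (56.2 ± 5.89 points, limma adjusted p = 0.00778). CYP4F22, which makes the ultra-long hydroxylated fatty acids of the skin barrier, had 21.9% and 36.5% in DKO, 25.6% and 11% in SKO, and 0% in both sgControl libraries, and was not called (DKO adjusted p = 0.0678). CYP4F11 and CYP4F12 carried 48.0% to 100% H3K9me3 in every library with no call. When only the higher-scoring 50% of domains were kept, the H3K27me3 calls of CYP4F12 and CYP4F11 in DKO were lost (adjusted p = 0.367 and 0.0643). The difference of CYP4F12 was then −39.0 points, while that of CYP4F11 was −78.3 points, larger than with all domains. Over 15 alternatives the adjusted p lay between 1.28e-08 and 0.367 for CYP4F12 and between 0.00108 and 0.0643 for CYP4F11, while the CYP4F3 calls held in all 14 of theirs (at most 0.00415).

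The CYP4A, CYP4B, CYP4X and CYP4Z genes on chromosome 1 lay mostly inside H3K27me3 domains, which covered 88.4 ± 3.23% of 351 kb in DKO, 88.7 ± 1.77% in SKO and 93.5 ± 1.77% in sgControl. CYP4A11, a fatty acid hydroxylase of kidney and liver, and CYP4A22, CYP4B1 and CYP4X1 were at 100% in all 6 libraries. CYP4B1 also had 76.4% to 100% H3K9me3, and CYP4A11 had none. CYP4Z1 had 78.3% and 58.0% H3K27me3 in DKO, 74.5% and 61.8% in SKO, and 78.3% and 89.8% in sgControl, with overlap between the genotypes. Of these 5 genes, 4 could be fitted for H3K9me3 and 1 for H3K27me3. With limma 0 of the fitted genes were called, beside the all-gene shares just given, and 0 had an unadjusted p under 0.05. Relative to the mean read density of all domains of the same library, the H3K27me3 domain over CYP4B1 had a density of 1.26 and 1.23 in DKO, 1.21 and 1.22 in SKO, and 1.63 in both sgControl libraries. The relative density over CYP4B1 was thus lower in all 4 knockout libraries, and so was that over CYP4A11, CYP4A22, CYP4X1 and CYP4Z1. The share of all genes with such a difference was not counted.

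Outside the clusters, 3 further fatty acid hydroxylases were called. CYP2J2, the arachidonic acid epoxygenase of heart and vessels, had 100% H3K27me3 in all 4 knockout libraries and 26.3% and 35.8% in sgControl. The rise of 68.9 ± 3.6 points (limma adjusted p = 0.000588 in DKO and 0.000615 in SKO) left its H3K9me3 at 100% and 97.3% in DKO, 99.5% and 92.1% in SKO, and 94.7% and 85.8% in sgControl. CYP2U1, a fatty acid hydroxylase of brain and thymus, had 0% H3K9me3 in both DKO libraries, 0% and 21.3% in SKO, and 78.1% and 100% in sgControl. The difference from sgControl was −89.0 ± 11.2 points in DKO (limma adjusted p = 0.0125) and −78.4 ± 11.2 points in SKO (adjusted p = 0.0160). CYP4V2, mutated in a crystalline dystrophy of the retina, had 39.6% and 36.5% in DKO, 39.6% and 43.2% in SKO and 0% in both sgControl libraries, a rise of 38.0 ± 2.03 points in DKO (adjusted p = 0.00162) and 41.4 ± 2.03 points in SKO (adjusted p = 0.00127). The CYP2U1 calls were lost at equal covered length (−50 points in DKO and −39.4 points in SKO) and when only the higher-scoring 50% of domains were kept (adjusted p up to 0.410 in DKO and 0.469 in SKO), and without DKO 1 or DKO 2 in both comparisons and sgControl 2 or SKO 1 in SKO (0.0536 to 0.0683). With 10 kb added on either side the CYP2U1 difference in SKO was −39.1 points and stayed called, and the CYP4V2 call in DKO was lost (18.1 points, adjusted p = 0.178).

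**Figure D4:**
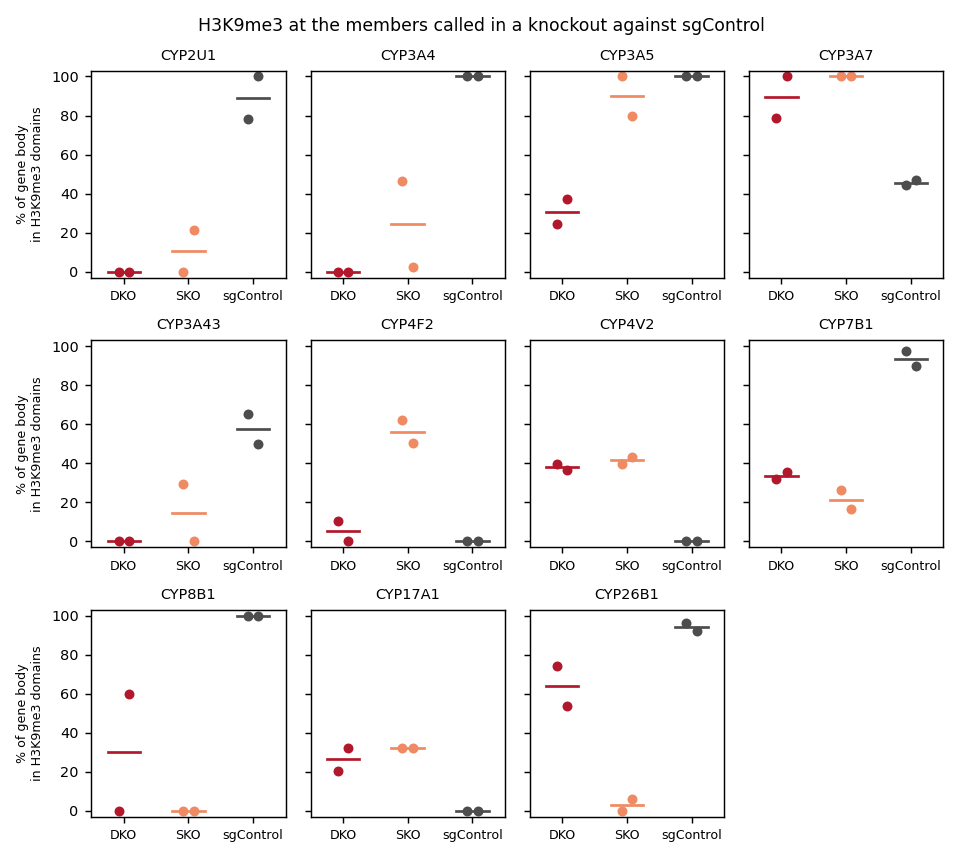
H3K9me3 covered share (percent of the gene body) of the 11 members called in DKO or SKO against sgControl, with 1 point per library and a line at each genotype's mean. CYP3A7, CYP4F2, CYP4V2 and CYP17A1 had a larger share in a knockout, and the other 7 a smaller one.

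Among the sterol and steroid enzymes, CYP7B1 exchanged one mark for the other in both knockouts. It is the oxysterol hydroxylase of the alternative bile acid pathway. H3K9me3 covered 31.7% and 35.6% of its 212163 bp in DKO and 26.4% and 16.4% in SKO, against 97.4% and 89.8% in sgControl. The knockout libraries lay far below sgControl, by −60.0 ± 4.93 points in DKO (limma adjusted p = 0.00458) and −72.2 ± 4.93 points in SKO (adjusted p = 0.00296). H3K27me3 covered 100% in both DKO libraries, 98.1% and 100% in SKO, and 0% and 10.9% in sgControl, a rise of 94.5 ± 4.21 points in DKO (limma adjusted p = 0.000371) and 93.6 ± 4.21 points in SKO (adjusted p = 0.000393). It was the only member called lower for H3K9me3 and higher for H3K27me3 in the same comparison. Only members fitted for both marks could show this, and 19 of the 55 were fitted for H3K27me3. All 4 calls of CYP7B1 held in all 15 alternatives (adjusted p at most 0.0317). CYP3A4 was called lower for both marks in both knockouts, and CYP26B1 in SKO. The shares of all genes with calls for both marks were not counted, so whether these patterns are unusual is not known.

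CYP11B2, the aldosterone synthase, had 0% H3K27me3 in all 4 knockout libraries and 100% in both sgControl libraries (−100 points, limma adjusted p = 3.59e-08 in DKO and 3.73e-08 in SKO). The call held in all 15 alternatives (adjusted p at most 0.0126), and the gene spans 7285 bp, while domain edges lie on an 800 bp grid. Its H3K9me3 was 52.7% and 30.8% in DKO, 0% in both SKO libraries and 8.81% in both sgControl libraries, and was not called. CYP11B1, its neighbour, which makes cortisol, had H3K9me3 of 0% and 38.1% in DKO, 46.4% and 70.2% in SKO, and 0% in both sgControl libraries, and was not called (SKO adjusted p = 0.0746). CYP8B1, which sets the share of cholic acid in bile, had 0% and 59.9% H3K9me3 in DKO, 0% in both SKO libraries and 100% in both sgControl libraries. It was called in SKO (−100 ± 22 points, adjusted p = 0.0422) and not in DKO (−70.1 points, adjusted p = 0.101), whose libraries differed from each other. The SKO call was lost when only the higher-scoring 50% of domains were kept (−50 points, adjusted p = 0.392) and without sgControl 1, sgControl 2, SKO 1 or SKO 2 (adjusted p = 0.157 to 0.166, and 6.02e-05 to 0.392 over 14 alternatives). CYP17A1, which opens the branch to cortisol and sex steroids, had 20.5% and 32.2% in DKO and 32.2% in both SKO libraries, against 0% in sgControl. It rose by 26.3 ± 4.39 points in DKO (adjusted p = 0.0240) and 32.2 ± 4.39 points in SKO (adjusted p = 0.0143). With 10 kb added on either side the DKO difference was 43.9 points. Both calls were lost without either sgControl library or either SKO library (adjusted p = 0.0717 to 0.104), and in DKO also without DKO 2, where the difference fell under 25 points.

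At several sterol genes the relative read density differed between genotypes, and the share of all genes at which it did was not counted. The reads of a domain were taken as spread evenly over it. A density therefore belongs to whole domains and not to the gene alone. CYP39A1, a hydroxylase of brain-derived oxysterols, was 95.4% to 100% covered by both marks in every library. The density of its H3K27me3 domains, relative to all domains of the library, was 2.45 and 2.60 in DKO and 2.40 and 2.43 in SKO, against 0.893 and 0.899 in sgControl. For H3K9me3 it was 1.67 and 1.65 in DKO, 1.5 in both SKO libraries, and 1.06 and 1.08 in sgControl. CYP46A1, the cholesterol hydroxylase of neurons, likewise had a higher H3K9me3 density in the knockouts, with 1.88 and 2.19 in DKO, 1.81 and 1.69 in SKO, and 1.01 and 1.05 in sgControl. Its covered share differed as well, at 52.1% and 46.5% in DKO, 40.9% and 44.6% in SKO, and 27.9% and 24.2% in sgControl. The knockouts lay above sgControl by 23.3 ± 3 points in DKO (limma adjusted p = 0.0131) and 16.7 ± 3 points in SKO (adjusted p = 0.0266), both under the limit of 25 points. CYP19A1, the aromatase, had 70.6% to 90.8% H3K9me3 and 0% H3K27me3 in all libraries, and CYP7A1, the rate-limiting enzyme of bile acid synthesis, had 89.8% and 41.7% H3K9me3 in DKO, 59.9% and 100% in SKO, and 100% in both sgControl libraries. The H3K9me3 density at CYP7A1 was 1.39 and 1.44 in DKO, 1.24 and 1.29 in SKO, and 0.992 and 1.11 in sgControl. At CYP7B1 it was lower in the knockouts, with 0.73 and 0.771 in DKO, 0.777 and 0.798 in SKO, and 1.06 and 1.02 in sgControl.

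**Figure D5:**
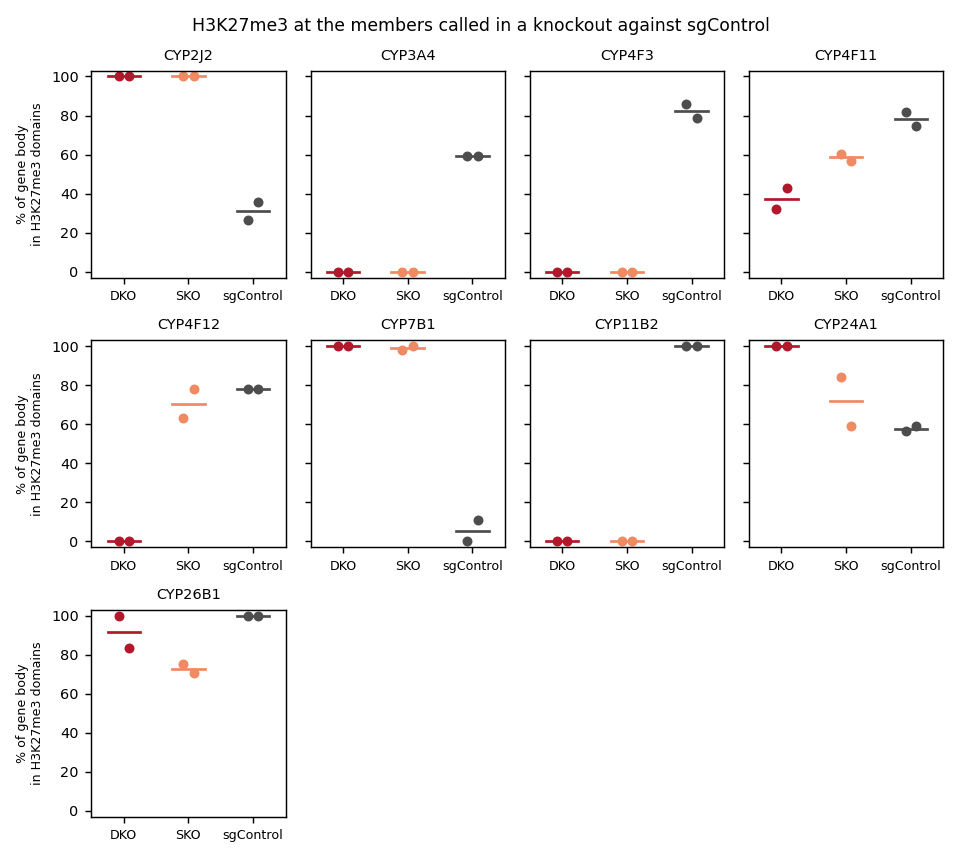
H3K27me3 covered share (percent of the gene body) of the 9 members called in DKO or SKO against sgControl, with 1 point per library and a line at each genotype's mean. CYP2J2, CYP7B1 and CYP24A1 had a larger share in a knockout, and CYP3A4, CYP4F3 and CYP11B2 were at 0% in all 4 knockout libraries.

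Among the vitamin A and D enzymes, CYP26B1, which degrades retinoic acid, had H3K9me3 of 74.2% and 53.5% in DKO, 0% and 6.24% in SKO, and 96.4% and 92.2% in sgControl. SKO lay below both other genotypes, with a difference from sgControl of −91.2 ± 8.16 points (limma adjusted p = 0.00537), a call held in all 15 alternatives, at −60.4 points with 10 kb added on either side. Its H3K27me3 was 100% and 83.6% in DKO, 75.0% and 70.7% in SKO, and 100% in both sgControl libraries (SKO −27.2 ± 6.44 points, adjusted p = 0.0403). CYP24A1, which degrades active vitamin D, had 100% H3K27me3 in both DKO libraries, 84.2% and 59.1% in SKO, and 56.4% and 59.1% in sgControl, and was called in DKO (42.2 ± 9.58 points, adjusted p = 0.0347, and 100 points with the higher-scoring 50% of domains). Its H3K9me3 was 70.9% and 58.0% in DKO, 9.40% and 48.8% in SKO, and 0% in both sgControl libraries, with no call (DKO 64.5 ± 15.3 points, adjusted p = 0.0536). CYP27B1, which activates vitamin D, had 100% and 52.0% in DKO, 52.0% in both SKO libraries and 0% in both sgControl libraries, also without a call (DKO 76.0 points, adjusted p = 0.0515). The H3K27me3 calls of CYP26B1 in SKO and CYP24A1 in DKO were each lost without either sgControl library or either library of the knockout concerned (adjusted p = 0.127 to 0.167).

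DKO and SKO were also compared with each other, which bears on what the loss of SUV39H2 adds to that of SUV39H1. For H3K9me3, 1 member was called lower in DKO (2.63%, against 2.05% of all genes fitted) and 1 higher (2.63%, against 1.85%). CYP4F2 was lower in DKO than in SKO by −51.1 ± 5.89 points (limma adjusted p = 0.0317), and CYP26B1 was higher by 60.7 ± 8.16 points (adjusted p = 0.0436). For H3K27me3, CYP4F12 was called lower in DKO (−70.5 ± 5.62 points, adjusted p = 0.0114), which is 5.26% of the fitted members, against 1.29% of all genes. For this mark 0 members were called higher with limma, against 2.76% of all genes, and 2 (CYP24A1 and CYP26B1) had an unadjusted p under 0.05. CYP3A5 missed the threshold for H3K9me3 (−59.1 ± 8.76 points, adjusted p = 0.0523). Each of the 3 calls was lost without any of 4 or 5 libraries: that of CYP4F2 without sgControl 1, sgControl 2, SKO 1, DKO 1 or DKO 2 (adjusted p = 0.0597 to 0.108), that of CYP26B1 without either sgControl or either SKO library (0.118 to 0.144), and that of CYP4F12 without either sgControl or either DKO library (0.055 to 0.0733). At CYP4F12 the difference was 0 points with the higher-scoring 50% of domains and at equal covered length, and −39.9 points with 10 kb added on either side, and at CYP4F2 it was −32.0 points with those flanks (adjusted p = 0.0593). Over all alternatives the adjusted p lay between 0.0111 and 0.110 for CYP4F2, 0.018 and 0.152 for CYP26B1, and 3.56e-05 and 1 for CYP4F12.

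At the 39 promoter windows with a sequence, a window was counted as marked when at least 50% of it lay in domains in both libraries. H3K9me3 marked 10 P450 promoters in DKO (25.6%, against 10.8% of all 15812 promoters), 11 in SKO (28.2%, against 10.8%) and 11 in sgControl (28.2%, against 11.3%). H3K27me3 marked 8 in DKO (20.5%, against 13.6%), 8 in SKO (20.5%, against 13.0%) and 10 in sgControl (25.6%, against 13.6%). The numbers hardly differed, but the genes did. The CYP3A4 window shown above was in both marks in both sgControl libraries and in neither mark in any knockout library. The CYP3A7 window was in H3K9me3 in all 4 knockout libraries and in no sgControl library, and so was that of CYP17A1. The CYP2U1 window, rich in CpG, was in H3K9me3 in both sgControl libraries and in no knockout library. That of CYP2J2 was in H3K9me3 in every library, and in H3K27me3 in all 4 knockout libraries and in sgControl 1. The median ratio of observed to expected CpG was 0.10 in the 15 windows marked by either mark in sgControl and 0.30 in the other 24.

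SETDB1, a further H3K9 methyltransferase, was profiled in WT cells only. Peaks within the gene body or 2 kb on either side were found in both libraries at 10 of the 55 members (18.2%, against 20.6% of all genes), a share near that of all genes. At 7 of them a peak of one library overlapped a peak of the other, 13 such peaks in all. At CYP4V2 the peak at chr4:186208682-186210199, inside the gene, had the authors' fold of 7.62 and 6.69 in the 2 libraries. It lay wholly inside the H3K9me3 domain of each of the 4 knockout libraries and outside all domains in sgControl. At CYP17A1 the peak at chr10:102837988-102838917, just beyond its start, showed the same (fold 4.33 and 4.46), and so did peaks at CYP4F22 (fold 3.26 and 4.53) and at the left end of the CYP46A1 domain (fold 5.63 and 3.56). The share of all SETDB1 peaks lying in domains of the knockouts only was not counted. Whether this pattern is unusual is therefore not known. At CYP7B1 one peak lay inside H3K9me3 domains in all 6 libraries and another in sgControl only. A second CYP4V2 peak, at chr4:186202589-186203205 (fold 5.49 and 4.22), and both CYP51A1 peaks lay outside all domains in every library. The other peaks lay wholly or almost wholly in domains of every library. With peaks of a −log10 p of at least 10 the count was 4 members (CYP4V2, CYP17A1, CYP46A1 and CYP51A1), and with a peak in either library it was 19.

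The genes that work with P450 enzymes were set beside them as a list of 44 genes. Of 8 redox partners, including POR, which passes electrons to microsomal P450s, and of 18 regulators, 0 were called for either mark in any comparison with limma. An unadjusted p under 0.05 was found for 1 redox partner (CYB5A) and 2 regulators (AHR and PPARA) for H3K9me3, and for 2 regulators (HNF4A and NR1H4) for H3K27me3. Only 2 of the redox partners and 10 of the regulators could be fitted for H3K9me3, and 0 and 2 for H3K27me3, so the 0 covers few genes. POR had 0% of both marks in every library. NR1I2, which encodes PXR, had 40.4% and 42.6% H3K9me3 in DKO, 58.0% and 93.2% in SKO, and 75.6% and 0% in sgControl, and AHR, the dioxin receptor on chromosome 7, had 29.8% and 0% in DKO, 66.8% and 87.1% in SKO, and 67.4% and 53.4% in sgControl. Of the 24 list members fitted for H3K9me3, 2 were lower in DKO (ABCB1 and SULT2A1; 8.33%, against 10.1% of all genes fitted), 1 in SKO (SULT2A1; 4.17%, against 10.2%) and 0 higher in either knockout (against 8.74% in DKO and 9.79% in SKO). Of the 13 fitted for H3K27me3, 3 were higher in each knockout (23.1%, against 19.5% of all genes in DKO and 17.4% in SKO) and 2 lower (15.4%, against 15.6% and 16.0%), shares near those of all genes. SULT2A1, which sulphates steroids and bile acids, had 0% H3K9me3 in all 4 knockout libraries, against 100% and 95.5% in sgControl (−97.7 points, limma adjusted p = 8.85e-05 in both).

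Of 4 transporters, ABCC2 had 0% H3K27me3 in every library and was not fitted for this mark. The 3 that were fitted, ABCB1, SLCO1B1 and SLCO1B3, rose for H3K27me3 in both knockouts. Among all genes fitted, 19.5% were called higher in DKO and 17.4% in SKO. All 3 transporters had 0% in both sgControl libraries, so they entered the fit only through the knockouts and could only rise. ABCB1, the drug efflux pump P-glycoprotein, had 75.7% and 79.4% in DKO, 82.4% and 83.9% in SKO, and 0% in both sgControl libraries (77.5 ± 1.54 points in DKO, limma adjusted p = 3.32e-05). Its H3K9me3 was 15.2% and 0% in DKO, 45.3% and 63.4% in SKO, and 84.8% and 100% in sgControl (DKO −84.8 ± 10.4 points, adjusted p = 0.0115). In DKO ABCB1 was thus called lower for one mark and higher for the other, as CYP7B1 was. ABCB1 lies on chromosome 7, where 30.8% of fitted genes were called lower for H3K9me3 in DKO, against 8.75% on other chromosomes. The relative read density of chromosome 7 domains also differed between genotypes, as given with the CYP3A cluster. The part of these chromosome-wide differences in the changes at ABCB1 was not tested. SLCO1B1 and SLCO1B3, which carry drugs and bile acids into liver cells, had 62.4% to 89.0% H3K27me3 in the 4 knockout libraries and 0% in both sgControl libraries (adjusted p = 0.00734 and 0.000184 in DKO, 0.00556 and 0.000185 in SKO). The conjugating enzymes SULT1E1 and NAT1 fell. SULT1E1 had 0% in the knockouts, against 55.7% in both sgControl libraries, and NAT1 had 22.4% and 37.5% in DKO, 30.1% and 39.0% in SKO, and 79.0% and 83.5% in sgControl.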

How the data were processed

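The authors' deposited H3K9me3 and H3K27me3 files hold broad domains, listed for each library separately and named by the authors for the caller epic2, while the submitters' processing notes name SICER. For each domain the deposited lists give the read count in that library and a score, with no spike-in factor, although Drosophila chromatin had been added, per the labels' protocols. The deposited SETDB1 lists hold narrow peaks per library with a fold enrichment and a −log10 p-value. The submitters' processing notes name the builds hg38 and dm6 and the tools Trim Galore 0.6.10, FastQC 0.12.1 and deepTools 3.5.6. The sources used here do not give the aligner, the read filters or the SETDB1 peak caller. The 4 input samples were not analysed here.

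From these lists the covered share of each gene was computed with Python 3.11.15, numpy 2.4.6 and pandas 2.3.3, with gene positions from RefSeq GRCh38.p14. It was fitted with limma 3.58.1 in R 4.3.3 over the 6 libraries of a mark, with all 3 genotypes sharing one estimate of the spread. The covered share is bounded at 0 and 100%, so p-values are approximate. The procedure was tested on simulated data. Promoter windows were aligned with Biopython 1.88, and figures were drawn with matplotlib 3.10.9. Domain scores were used only to rank domains within a library. Reads in domains are the only depth known, since reads outside domains are not counted in the lists. Alternatives were other domain sets (the higher-scoring 50% of each list, and the best-scoring domains of each list up to the length of the shortest list of that mark), flanks, filters and thresholds, a replicate block and leaving out each library. The members and all gene lists were chosen with earlier results of these data known. One member is counted in the totals and is otherwise not reported here. Genes named are the others of the CYP2C, CYP3A and CYP4F clusters, those on chromosome 7, all called members, those covered by at least 50% in all libraries of a mark, and called partner genes; CYP2B6, CYP4A11, CYP4Z1, CYP11B1, CYP46A1, CYP7A1, CYP27B1, NR1I2, AHR and POR, ABCC2, CYB5A, PPARA, HNF4A and NR1H4 and the genes at 0% were named after their values were seen.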

Additional observations from a re-analysis of the deposited data

Results flagged for a closer look

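The 2 knockouts differed from each other at 3 genes. CYP4F2 differed for H3K9me3 by −51.1 points, DKO minus SKO (limma adjusted p = 0.0317), with 10.3% and 0% in DKO, 62.2% and 50.2% in SKO and 0% in both sgControl libraries. CYP26B1 differed for H3K9me3 by 60.7 points (adjusted p = 0.0436), with DKO between SKO and sgControl. CYP4F12 differed for H3K27me3 by −70.5 points (adjusted p = 0.0114), with DKO at 0% and SKO overlapping sgControl. That difference was 0 points with the higher-scoring 50% of domains and at equal covered length. Each call rests on a contrast between the knockouts themselves, and what sets the lines apart beyond SUV39H2 was not tested.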

How the results depend on the processing

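Of 34 calls, 0 changed sign under any alternative, while 42 differences that were not called did, and the order of the mean H3K9me3 shares turned round at equal covered length (below). Of the single-gene values, 1809 kept their side of the threshold, 115 lost a call and 50 gained one. Where counts below changed, the cause was not tested. The main limits are that domain extent has no total-amount scale, that there are 2 libraries per genotype (16 of the 34 calls were lost without some single library and 18 were not), and that reads in domains are the only depth.

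For H3K9me3 in DKO against sgControl, 5 members were called lower. The count was 3 with the higher-scoring 50% of domains, 3 at equal covered length, 1 with no filter on the genes fitted and 2 without chromosome 7, and 2 to 5 without single libraries. The 3 called higher became 7 with the higher-scoring domains, 7 at equal length, 1 with no filter, 0 with a limit of 50 points and 5 (all genes 3.84%) where groups only had to be apart by 25 points with no overlap, and 1 to 6 without single libraries. In SKO against sgControl, the 5 lower became 3 at equal length and 2 with no filter (2 to 5 without single libraries), and the 4 higher became 8 at equal length, 2 with no filter and 2 with a limit of 50 points (2 to 5). In DKO against SKO, the 1 lower became 2 with higher-scoring domains, 2 at equal length, 0 with flanks of 10 kb, 0 with no filter and 3 with no overlap (all genes 1.34%), and 0 to 3 without single libraries. The 1 higher became 3 with higher-scoring domains, 0 with no filter, 0 without chromosome 7 and 3 with no overlap (1.46%), and 0 to 4 without single libraries.

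For H3K27me3 in DKO against sgControl, the 5 lower became 2 with the higher-scoring domains and 8 with flanks of 10 kb (5 to 6 without single libraries), and the 3 higher became 2 to 3 without single libraries. In SKO the 4 lower became 3 to 4 and the 2 higher 2 to 3 without single libraries, and over the other alternatives they were 3 to 5 and 2 to 3. In DKO against SKO, the 1 lower became 0 with higher-scoring domains, 0 at equal length and 0 with no filter, and the 0 higher became 1 with higher-scoring domains and 1 at equal length (each 0 to 1 without single libraries).

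Replicate numbers did not pair the samples: across the 6 pairs of groups, same-numbered libraries had deviations from the group means that correlated at −0.013 to 0.05. With the replicate number as a block, H3K9me3 gave 3 lower and 4 higher in SKO, 4 lower and 1 higher in DKO, and 0 lower and 0 higher in DKO against SKO, and H3K27me3 gave 0 lower in DKO against SKO.

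With the higher-scoring 50% of domains the mean H3K9me3 covered share over the 55 genes was 29.4% in DKO, 25.6% in SKO and 28.7% in sgControl, and that of H3K27me3 was 25.3% in DKO, 24.3% in SKO and 27% in sgControl. At equal covered length it was 33.2% in DKO, 32.3% in SKO and 26.6% in sgControl for H3K9me3, and 25.3%, 24.3% and 31.5% in the same order for H3K27me3. Members with SETDB1 peaks in both libraries numbered 10, against 4 with a −log10 p of at least 10 and 19 with a peak in either library.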
